A study of Mus musculus with 15 samples.

Results

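The genes Pcp2, Car8, Cbln1, Zic1, Zic2, Barhl1, Neurod1 and Eomes, known from granule and Purkinje cells of the cerebellum, were followed through the 15 brainstem libraries of the study. These 8 genes were chosen by name with earlier results of these data known, and all 8 were found by their Ensembl identifiers among the 57180 genes of the deposited tables. In the embryos, Pcp2, Car8, Zic2, Neurod1 and Eomes were called lower in Lmx1b+/- than in WT brainstem, as were 17.3% of all genes tested. None of the 8 was called different in Lmx1b-/- compared with WT by edgeR. In that comparison 7 of them were lower in every Lmx1b-/- library than in any WT library, as were 6.09% of all genes. Cbln1 and Barhl1 were among the 7 by a narrow margin. In the newborn mice, Barhl1 was called lower in the libraries labelled AMPK-/-, as were 5.17% of all genes tested. All 8 genes had lower means in both newborn groups than in the 3 embryonic groups.

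The cerebellum forms from the dorsal part of the most anterior hindbrain, next to the isthmus, the boundary with the midbrain. Its neurons have separate origins. Granule cells and other glutamatergic neurons leave the rhombic lip, a strip of dividing cells at the edge of the hindbrain roof, whereas Purkinje cells, which are GABAergic, leave the ventricular zone. The rhombic lip also runs along the hindbrain behind the cerebellum, where it gives rise to the pontine and other precerebellar nuclei and to cochlear neurons, so several of these genes are also at home in the brainstem. Lmx1b encodes a LIM-homeodomain transcription factor needed for the isthmus and for serotonergic neurons, and AMPK is a kinase that senses cellular energy.

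The study compared brainstem tissue by RNA-seq to ask how the loss of either protein changes gene expression in the region that controls breathing. In the AMPK experiment, 3 WT libraries (AMPK+/+) and 3 libraries labelled AMPK-/- came from newborn C57BL/6 mice. The study describes the latter as AMPKα2-/- mice, which lack a catalytic subunit of the kinase, compared with WT littermates. In the Lmx1b experiment, 3 WT (LMX1B+/+), 3 Lmx1b+/- and 3 Lmx1b-/- libraries came from prenatal C57BL/6 embryos, whose stage is not given in the sources used here. The methods give postnatal days 1 to 5 for the mice in their general account of animal care, and no separate age for those used for RNA. Whether a library held 1 animal or several is not given either, so that p-values measure the spread between these libraries. Levels are given as CPM, counts divided by the library's TMM-scaled total, TMM being a correction for the make-up of each library. Differences are log2 fold changes with their standard errors (SE) from edgeR's quasi-likelihood test, and a gene is called at an adjusted p under 0.05 over all genes tested.

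Total counts lay between 28833130 and 37441679 in the 9 Lmx1b libraries. In the AMPK experiment, WT 2 and AMPK-/- 3 held 291212 and 335986 counts, against 14975095 to 17384171 in the other 4, and 3 counts stood for 9.98 and 9.07 CPM in them, against at most 0.198 CPM in the others. The targeted gene fell in the Lmx1b-/- libraries, where Lmx1b was at 1.45, 1.13 and 0.848 CPM, compared with 22.5, 16.0 and 9.73 CPM in WT and 30.5, 11.9 and 14.3 CPM in Lmx1b+/-. Lmx1b was not lower in every Lmx1b+/- library than in WT. Prkaa2, which encodes AMPKα2, stood at 21.9, 26.6 and 29.7 CPM in the newborn WT, whereas the 3 libraries labelled AMPK-/- held 25.4, 22.3 and 12.1 CPM, an edgeR log2 difference of -0.20 (SE 0.23, adjusted p = 0.659), so the label is used below only as a label. The brainstem origin showed in a summed level of 13 hindbrain genes of 206 to 691 CPM over the 15 libraries. The summed level of 12 skeletal muscle genes was 852 CPM in AMPK WT 3 and 6.66 to 15.7 CPM in the other 5 AMPK libraries. The share of counts on mitochondrial genes was 20.0 to 21.7% in the libraries labelled AMPK-/- and 10.4 to 13.9% in their WT, and 9.58 to 14.7% in Lmx1b+/-, 7.23 to 7.98% in Lmx1b-/- and 5.57 to 6.74% in the embryonic WT.

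Promoter sequence was given for 5 of the 8 genes: Pcp2, Zic1, Barhl1, Neurod1 and Eomes. The 250 bases before the first listed start were searched on both strands for 3 short words: AGGTCA, the word bound by nuclear receptors such as Rora, a Purkinje cell factor; TAATTA, a core bound by homeodomain proteins, the class to which Lmx1b belongs; and CAGCTG, an E-box of the kind bound by bHLH proteins such as Neurod1. Among all 27025 promoters of this length, 13.8% held AGGTCA, 4.9% TAATTA and 12.8% CAGCTG. Pcp2 and Barhl1 were the 2 genes with a match and are shown for that reason, 5′ to 3′ on the gene's strand, with the matches in capitals, from RefSeq on GRCm38.p6. The Pcp2 stretch is the minus strand of chr8:3625548-3625797, and the Barhl1 stretch the minus strand of chr2:28916669-28916918.
Pcp2: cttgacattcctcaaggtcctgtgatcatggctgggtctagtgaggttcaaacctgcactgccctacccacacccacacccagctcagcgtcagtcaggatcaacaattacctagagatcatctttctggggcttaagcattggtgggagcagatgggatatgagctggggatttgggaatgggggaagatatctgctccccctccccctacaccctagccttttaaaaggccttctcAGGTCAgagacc
Barhl1: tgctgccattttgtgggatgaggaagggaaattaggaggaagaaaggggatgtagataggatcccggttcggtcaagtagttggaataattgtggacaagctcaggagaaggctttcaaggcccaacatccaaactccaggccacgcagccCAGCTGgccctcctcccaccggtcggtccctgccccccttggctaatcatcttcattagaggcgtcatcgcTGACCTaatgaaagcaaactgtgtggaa
In Pcp2, AGGTCA lay at -12 to -7 from the start. In Barhl1, AGGTCA lay on the opposite strand at -28 to -23, so that its complement TGACCT is read here, and CAGCTG lay at -99 to -94. None of the 3 words was in the stretches of Zic1, Neurod1 or Eomes. A match is a description of the letters and not a measured site.

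**Figure D1:**
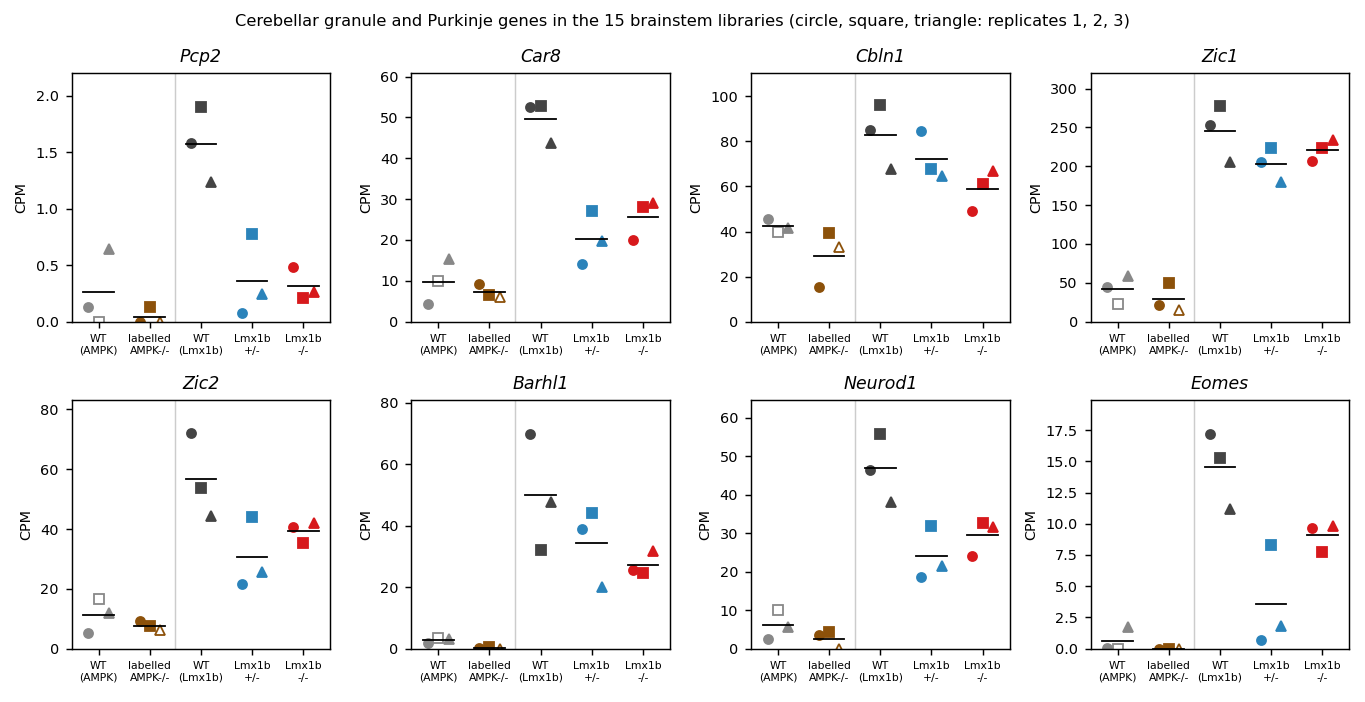
CPM of each gene (vertical axes, each starting at 0) in the 15 libraries, by group; circles, squares and triangles are replicates 1, 2 and 3, the bars are group means, and open symbols are the 2 libraries of low depth. Pcp2, Car8, Neurod1, Eomes and, by a narrow margin, Zic2 were higher in all 3 embryonic WT libraries than in all 6 Lmx1b+/- and Lmx1b-/- libraries. The newborn libraries were lower than the embryonic WT for every gene.

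Compared over gene length, as RPKM (counts scaled by gene length and library total), Zic1 stood highest in the embryonic WT at 45.5 ± 3.01 RPKM (SD, n = 3), followed by Cbln1 at 28.8 ± 2.54, Zic2 at 20.7 ± 3.07, Neurod1 at 18.1 ± 2.14, Car8 at 13.7 ± 0.448 and Barhl1 at 13.6 ± 4.75 RPKM. Eomes at 3.67 ± 0.331 RPKM and Pcp2 at 0.906 ± 0.119 RPKM came last. In this order, the ranges of Zic2 and Neurod1 and those of Car8 and Barhl1 overlapped, and the other neighbours were apart in all 3 libraries. Zic1 and Cbln1 also led in Lmx1b+/-, at 32.4 ± 5.70 and 21.4 ± 2.17 RPKM, and in Lmx1b-/-, at 40.4 ± 2.01 and 20.2 ± 2.87 RPKM, and Eomes and Pcp2 were last in both. In the newborn WT, Cbln1 was highest at 14.6 ± 0.914 RPKM and Zic1 second at 7.79 ± 3.53 RPKM, apart in all 3 libraries. Barhl1, at 0.744 ± 0.260 RPKM, stood below Neurod1, apart from it in all 3 libraries, and its range overlapped that of Eomes. Age, tissue sample and table differ between the experiments, so the newborn and embryonic values are set side by side with no test.

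Of the 8 genes, 5 were called lower in Lmx1b+/- compared with WT and none higher, where 17.3% of the 21729 genes tested were called lower, 19.4% higher and 36.7% in either direction. The same 5 were lower in every Lmx1b+/- library than in any WT library, as were 21.9% of all genes tested. The median log2 difference of the 8 genes was -0.93, against -0.03 over all genes. Between Lmx1b-/- and WT, edgeR called none of the 8 and 4 of the 21729 genes (0.0184%). At an unadjusted p under 0.05, 6 of the 8 were lower in Lmx1b-/-, compared with 2.54% of all genes (8.09% in either direction), and 7 had no overlap between the groups in that direction, compared with 6.09%. DESeq2 called 2 of the 8, Pcp2 (adjusted p = 0.0216) and Car8 (adjusted p = 0.00103), among 35 of all 21729 genes. On RPKM, limma called 0 of the 8 and 3 of all genes. The median log2 difference of the 8 was -0.67, against 0.01 over all genes. Between Lmx1b-/- and Lmx1b+/-, edgeR called none of the 8, where 25.5% of genes were called (14.0% lower and 11.5% higher). Eomes was the 1 gene of the 8 with an unadjusted p under 0.05 there, which 36.8% of all genes had. DESeq2 also called 0 of the 8 in that comparison, where it called 5888 of all 21729 genes. On RPKM, limma called 1 of the 8, Eomes, where it called 4334 and 4500 of all genes at pseudocounts of 1 and 0.1. These 3 comparisons share libraries and are not independent of each other. Because the 8 genes were chosen with earlier results of these data known, the shares beside them are a description and not a test of the set. In whole tissue, fewer cells of a type and less RNA per cell cannot be told apart.

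**Figure D2:**
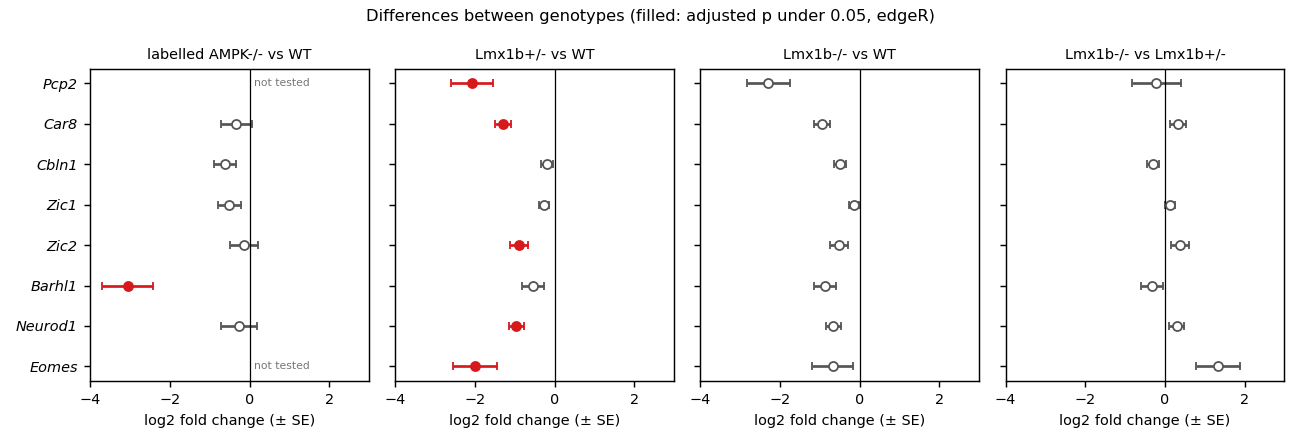
Log2 fold change of each gene in the 4 comparisons (points, with SE as bars; filled points have an adjusted p under 0.05 in edgeR). In Lmx1b+/- and Lmx1b-/- all 8 points lie below 0, 5 of them filled in Lmx1b+/-, and Barhl1 is the one filled point in the AMPK experiment; Pcp2 and Eomes were not tested there.

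Pcp2 encodes a small regulator of G protein signalling that is almost restricted to Purkinje cells and retinal bipolar cells. It had the lowest level of the 8 genes in the embryos, and few counts in the mutant and newborn libraries. In the embryonic WT it was at 1.58, 1.90 and 1.24 CPM (45, 55 and 55 counts), in Lmx1b+/- at 0.0724, 0.774 and 0.240 CPM (2, 24 and 8 counts) and in Lmx1b-/- at 0.484, 0.208 and 0.265 CPM (15, 7 and 10 counts). Every mutant library was below every WT library, and in Lmx1b+/- 1 the 2 counts were under the 3 counts taken as the floor. The log2 difference from WT was -2.08 (SE 0.53, adjusted p = 0.00797 in edgeR) in Lmx1b+/- and -2.30 (SE 0.53, adjusted p = 0.491) in Lmx1b-/-, and the 2 mutant groups differed by -0.22 (SE 0.61, adjusted p = 0.833). For Lmx1b+/- the difference from WT was -3.22 (adjusted p = 0.000591) without Lmx1b+/- 2 and -1.64 (adjusted p = 0.0153) without Lmx1b+/- 1. The newborn libraries held 2, 0 and 11 Pcp2 counts in WT and 0, 2 and 0 in the libraries labelled AMPK-/-, too few for the test, with the 11 counts in WT 3. Pcp2 overlaps Pet100, an assembly factor of mitochondrial complex IV, on the opposite strand, and the strand setting of the counting is not given. Pet100 was at 1.72, 2.22 and 1.60 CPM in the embryonic WT, 3.37, 4.32 and 5.97 CPM in Lmx1b+/- and 1.97, 3.03 and 2.20 CPM in Lmx1b-/-. It was thus higher where Pcp2 was lower in Lmx1b+/- (log2 difference 1.31, adjusted p = 0.00134 in edgeR).

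Car8 encodes a carbonic anhydrase-related protein without enzyme activity that binds the IP3 receptor Itpr1 and is abundant in Purkinje cells. It was at 52.6, 52.9 and 43.7 CPM in the embryonic WT, 14.2, 27.2 and 19.7 CPM in Lmx1b+/- and 19.9, 27.9 and 29.0 CPM in Lmx1b-/-. The WT libraries stood well above all 6 mutant libraries, and the mutant groups overlapped. For Car8 the log2 difference was -1.29 (SE 0.20, adjusted p = 0.000315 in edgeR) in Lmx1b+/- and -0.95 (SE 0.20, unadjusted p = 0.000337, adjusted p = 0.332 in edgeR) in Lmx1b-/-. Between Lmx1b-/- and Lmx1b+/- it was 0.33 (adjusted p = 0.253). In the newborns, Car8 was at 4.21, 9.98 and 15.2 CPM in WT and 9.25, 6.48 and 6.04 CPM in the libraries labelled AMPK-/-, so the groups overlapped (log2 difference -0.34, SE 0.39, adjusted p = 0.643 in edgeR). Without WT 3 this difference turned to 0.75.

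Cbln1 encodes cerebellin, which granule cells secrete at their synapses with Purkinje cells, where it binds presynaptic neurexins, and it is also made by neurons of the brainstem. It was at 85.3, 96.2 and 67.6 CPM in the embryonic WT, 84.5, 67.6 and 64.9 CPM in Lmx1b+/- and 49.2, 61.1 and 66.7 CPM in Lmx1b-/-. Lmx1b+/- overlapped WT, whereas the 3 Lmx1b-/- libraries lay below the lowest WT library, the highest of them by less than 1 CPM. The log2 difference was -0.20 (adjusted p = 0.318 in edgeR) in Lmx1b+/- and -0.49 (SE 0.15, unadjusted p = 0.00565, adjusted p = 0.532) in Lmx1b-/-. In the newborns, Cbln1 was the gene of the 8 with the narrowest spread in WT relative to its mean, at 45.6, 39.9 and 41.4 CPM, and the libraries labelled AMPK-/- held 15.4, 39.2 and 33.2 CPM. All 3 of these were below WT, AMPK-/- 2 by less than 1 CPM. The lowest WT value came from WT 2, a library of low depth in which 3 counts stood for 9.98 CPM. Neither this gap nor the narrow WT spread is therefore well resolved. The log2 difference of -0.62 (SE 0.27, unadjusted p = 0.0293) had an adjusted p of 0.149 in edgeR. It was -0.17 (adjusted p = 0.834) without AMPK-/- 1 and -1.21 (adjusted p = 0.00392) without AMPK-/- 2. Cbln1 overlaps the noncoding gene Gm2694 on the opposite strand, which was at 12.1, 17.0 and 10.8 CPM in the embryonic WT and 5.91, 9.95 and 8.77 CPM in Lmx1b-/- (log2 difference -0.69, adjusted p = 0.532 in edgeR).

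Zic1 and Zic2 encode zinc finger transcription factors of granule cell precursors and of the dorsal neural tube, and both are also made in the meninges or their precursors. Zic1, the gene of the 8 with the highest level per length in the embryo, was at 254, 278 and 205 CPM in WT, 206, 224 and 180 CPM in Lmx1b+/- and 207, 223 and 234 CPM in Lmx1b-/-. The 3 groups overlapped, and the log2 differences from WT were -0.27 (adjusted p = 0.105 in edgeR) in Lmx1b+/- and -0.15 (SE 0.13, adjusted p = 0.757) in Lmx1b-/-. Without WT 3 the former was -0.38 (adjusted p = 0.0382). Zic4, which overlaps Zic1 on the opposite strand and was counted apart from it, had log2 differences of -0.22 (adjusted p = 0.209 in edgeR) in Lmx1b+/- and -0.16 (adjusted p = 0.742) in Lmx1b-/-. In the newborns Zic1 was at 44.2, 23.3 and 58.1 CPM in WT and 21.1, 50.1 and 15.1 CPM in those labelled AMPK-/-, with AMPK-/- 2 between the WT libraries (log2 difference -0.51, adjusted p = 0.276 in edgeR). It was -0.16 (adjusted p = 0.825) without AMPK-/- 1 and -1.22 (adjusted p = 0.00141) without AMPK-/- 2.

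Zic2 was at 72.2, 53.7 and 44.4 CPM in the embryonic WT, 21.7, 44.1 and 25.7 CPM in Lmx1b+/- and 40.7, 35.5 and 42.0 CPM in Lmx1b-/-. Both mutant groups lay below all WT libraries, although Lmx1b+/- 2 did so by less than 1 CPM. Its log2 difference was -0.89 (SE 0.23, adjusted p = 0.00786 in edgeR) in Lmx1b+/- and -0.53 (SE 0.23, unadjusted p = 0.0362, adjusted p = 0.604) in Lmx1b-/-. The newborn groups overlapped, at 5.33, 16.6 and 11.9 CPM in WT and 9.25, 7.64 and 6.04 CPM in the libraries labelled AMPK-/- (log2 difference -0.14, SE 0.34, adjusted p = 0.842 in edgeR), and the direction turned to 0.40 without WT 3.

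Barhl1 encodes a homeodomain factor of migrating granule cell precursors and of precerebellar neurons. Relative to its mean it varied most of the 8 among the embryonic WT libraries, at 70.0, 32.1 and 47.8 CPM, and was at 38.8, 44.0 and 20.0 CPM in Lmx1b+/- and 25.6, 24.5 and 31.7 CPM in Lmx1b-/-. WT 2 was below 2 of the Lmx1b+/- libraries and just above the highest Lmx1b-/- library. The log2 difference was -0.55 (SE 0.28, adjusted p = 0.142 in edgeR) in Lmx1b+/- and -0.87 (SE 0.28, unadjusted p = 0.00804, adjusted p = 0.538) in Lmx1b-/-. In Lmx1b+/- it was -0.22 (adjusted p = 0.573) without WT 1, -0.78 (adjusted p = 0.0392) without WT 2 and -0.27 (adjusted p = 0.459) without Lmx1b+/- 3, and -0.14 (adjusted p = 0.636) with the length and GC trend of each library removed. Its relative Barhl2 was also lowest of the WT libraries in WT 2 and lowest of Lmx1b+/- in replicate 3, at 11.2, 4.33 and 10.4 CPM in WT and 5.68, 6.29 and 2.34 CPM in Lmx1b+/-.

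Barhl1 was the 1 gene of the 6 tested that was called in the AMPK experiment, where 8.94% of 17397 genes were called, 5.17% lower and 3.77% higher. With Cbln1, it was 1 of 2 genes with an unadjusted p under 0.05, both lower, compared with 13.2% of all genes lower and 24.6% in either direction. The median log2 difference of the 6 genes was -0.42, against -0.01 over all genes. It was at 1.71, 3.33 and 3.21 CPM in WT and 0.198, 0.389 and 0 CPM in the libraries labelled AMPK-/-. All 3 of the latter were below WT, as was the case for 2 of the 6 genes and 12.7% of all genes tested. The counts were small, 26, 1 and 55 in WT and 3, 6 and 0 in the others, and in the libraries of low depth neither the 1 count nor the 0 could be told from the floor. The log2 difference was -3.06 (SE 0.64, adjusted p = 0.00493 in edgeR). It was -2.59 (adjusted p = 0.0847) without WT 3 and -3.03 (adjusted p = 0.129) without both libraries of low depth. On RPKM, limma did not call it (adjusted p = 0.196 and 0.226 at pseudocounts of 1 and 0.1). It called 0 of all 17397 genes at either pseudocount, so this does not set Barhl1 apart. DESeq2 gave Barhl1 no adjusted p. WT 3 also stood apart in its muscle genes, the part of which in this result was not tested.

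Neurod1 encodes a bHLH factor that drives granule cells to differentiate, and it acts in other neurons as well. It was at 46.4, 55.9 and 38.2 CPM in the embryonic WT, 18.7, 31.9 and 21.5 CPM in Lmx1b+/- and 24.2, 32.7 and 31.6 CPM in Lmx1b-/-. All 6 mutant libraries were below WT, and Lmx1b+/- 2 was the highest of its group, as it was for Pcp2, Car8, Zic1, Zic2, Barhl1 and Eomes. Compared with WT, the log2 difference was -0.96 (SE 0.19, adjusted p = 0.00185 in edgeR) in Lmx1b+/- and -0.66 (SE 0.19, unadjusted p = 0.00407, adjusted p = 0.532) in Lmx1b-/-. In the newborns it was at 2.50, 9.98 and 5.60 CPM in WT and 3.44, 4.21 and 0 CPM in the libraries labelled AMPK-/-, of which the 9.98 and the 0 came from the libraries of low depth (log2 difference -0.26, SE 0.45, adjusted p = 0.769 in edgeR).

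Eomes encodes a T-box factor, also called Tbr2, of unipolar brush cells and of early neurons of the cerebellar nuclei. It was at 17.2, 15.2 and 11.2 CPM in the embryonic WT, 0.651, 8.32 and 1.77 CPM in Lmx1b+/- and 9.69, 7.72 and 9.78 CPM in Lmx1b-/-. Every mutant library was below WT, and 2 of the 3 Lmx1b+/- libraries were far below all Lmx1b-/- libraries. The log2 difference was -2.01 (SE 0.55, adjusted p = 0.0120 in edgeR) in Lmx1b+/-, -1.67 (adjusted p = 0.0629) without Lmx1b+/- 3 and -3.52 (adjusted p = 1.39e-05) without Lmx1b+/- 2. It was -0.68 (SE 0.52, unadjusted p = 0.212, adjusted p = 0.731) in Lmx1b-/- against WT, and 1.33 (SE 0.55, adjusted p = 0.0949) in Lmx1b-/- against Lmx1b+/-. Without Lmx1b+/- 2 the latter was 2.82 (adjusted p = 0.000104), and Car8 (0.55), Zic2 (0.68) and Neurod1 (0.50) were then called higher in Lmx1b-/- as well. In the newborns Eomes had 1, 0 and 29 counts in WT, the 29 again in WT 3, and no count in any library labelled AMPK-/-, which allows up to 0.198, 0.194 and 9.07 CPM in these libraries.

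The other genes of the 2 lineages were read from lists. Of 15 tested genes of the granule cell lineage, 4 were lower and 0 higher in Lmx1b+/-, compared with 17.3% and 19.4% of all genes. Their median log2 difference was -0.45, against -0.03 over all genes. The 4 were Slc17a7, the vesicular glutamate transporter VGLUT1 (-2.08, adjusted p = 0.00277 in edgeR), Neurod2 (-0.67, adjusted p = 0.0129), Nhlh1 (-0.68, adjusted p = 0.0263) and Rbfox3, the neuronal marker NeuN (-0.43, adjusted p = 0.0400). None of the 15 was called in Lmx1b-/- against WT by edgeR. There 3 were lower at an unadjusted p under 0.05, compared with 2.54% of all genes (8.09% in either direction), and DESeq2 called 1, Nhlh1. Nhlh1 (-1.04, adjusted p = 0.332) and Tlx3 (-1.18, adjusted p = 0.532) had the smallest p. Between Lmx1b-/- and Lmx1b+/-, Slc17a7 was higher (1.85, adjusted p = 0.00862) and Tlx3 lower (-1.46, adjusted p = 0.00932). Gabra6, which marks mature granule cells, had no count in any embryonic WT or Lmx1b+/- library.

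Of 19 tested genes of the Purkinje cell lineage, 6 were lower and 1 was higher in Lmx1b+/-, where 36.7% of all genes were called, 17.3% lower and 19.4% higher. Rora, the nuclear receptor needed for Purkinje cell maturation, was at 59.6, 66.7 and 55.1 CPM in WT, 28.7, 34.8 and 26.0 CPM in Lmx1b+/- and 34.0, 40.4 and 38.2 CPM in Lmx1b-/-. The WT libraries were again above all mutant libraries (-1.02, adjusted p = 4.86e-05 in edgeR, for Lmx1b+/-). Calb1, the calcium buffer calbindin (-0.65, adjusted p = 0.00102), was also lower, and Pcp4, a calmodulin regulator, was higher (0.62, adjusted p = 0.00117). Calb1 was the 1 gene of this list that edgeR called in Lmx1b-/- against WT, where DESeq2 called Rora and Ebf2 as well. It was at 39.2, 38.3 and 37.2 CPM in WT, 27.4, 23.1 and 22.5 CPM in Lmx1b+/- and 18.0, 21.4 and 24.1 CPM in Lmx1b-/- (-0.85, adjusted p = 0.0429 in edgeR, for Lmx1b-/-). Between Lmx1b-/- and Lmx1b+/-, 2 genes of the list were higher and 2 lower in edgeR, compared with 11.5% and 14.0% of all genes. The lower ones were Pcp4 (-0.84, adjusted p = 0.000264) and Ebf2 (-0.90, adjusted p = 0.00855).

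Of the 10 relatives and partners of Cbln1 and Car8, 6 were lower in Lmx1b+/- than in WT and none was higher, compared with 17.3% and 19.4% of all genes. Among them were Grid1, a delta glutamate receptor (-0.69, adjusted p = 0.000318 in edgeR), the neurexins Nrxn2 (-0.86, adjusted p = 0.000451) and Nrxn3 (-0.51, adjusted p = 0.00638), and Grid2ip, a postsynaptic scaffold protein (-1.33, adjusted p = 0.00423). These same 4 were higher in Lmx1b-/- than in Lmx1b+/-, among 5 of the 10 (11.5% of all genes were higher), by 0.52 for Grid1 (adjusted p = 0.00349), 0.66 for Nrxn2 (adjusted p = 0.00421), 0.46 for Nrxn3 (adjusted p = 0.0152) and 1.02 for Grid2ip (adjusted p = 0.0269). None of the 10 was called in Lmx1b-/- against WT by edgeR, DESeq2 or limma, 0 had an unadjusted p under 0.05, and the values with the smallest p were -0.17 for Grid1 (adjusted p = 0.689) and -0.17 for Cbln4 (adjusted p = 0.698).

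**Figure D3:**
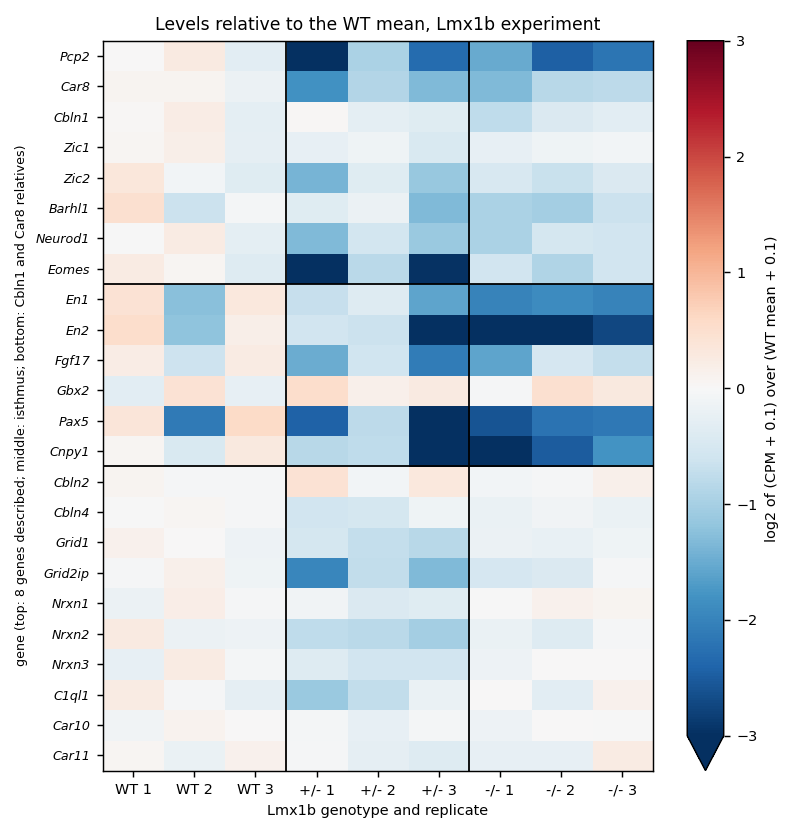
Colour gives the log2 ratio of CPM + 0.1 to the WT mean + 0.1 in each of the 9 embryonic libraries (columns), for the 8 genes (top), the isthmus genes (middle) and the relatives and partners of Cbln1 and Car8 (bottom); ratios under -3 have the darkest blue. The 8 genes are mostly blue in both mutants, En1, En2, Pax5 and Cnpy1 are darkest in Lmx1b-/- and Lmx1b+/- 3 and also blue in WT 2, and the partners are near white in Lmx1b-/-.

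The genes of the isthmus and the cerebellar territory, where the cerebellum arises, differed between libraries of 1 group. Their summed level was 137, 61.4 and 137 CPM in WT, 65.4, 74.8 and 24.5 CPM in Lmx1b+/- and 23.9, 33.0 and 35.4 CPM in Lmx1b-/-. En2, a homeodomain factor of this territory, was at 39.9, 12.1 and 31.6 CPM in WT, 18.6, 17.6 and 1.86 CPM in Lmx1b+/- and 2.49, 3.33 and 4.08 CPM in Lmx1b-/-. WT 2 and Lmx1b+/- 3 were thus the low libraries of their groups, which was also so for Barhl1, whereas Pcp2, Car8, Cbln1, Zic1 and Neurod1 were highest of WT in WT 2. Of 6 tested isthmus genes, Pax5 (-1.79, adjusted p = 0.0314 in edgeR) and Fgf17 (-1.67, adjusted p = 0.0376) were lower in Lmx1b+/-, with overlap between the groups for each. Fgf17 was low, with means of 0.187 CPM in Lmx1b+/- and 0.590 CPM in WT. In that comparison DESeq2 called Fgf17 but not Pax5, and limma called 4 of the 6, these 2 genes among them. In edgeR, En1 (-1.17, adjusted p = 0.0352) and En2 (-1.93, adjusted p = 0.0366) were lower in Lmx1b-/- than in Lmx1b+/-. DESeq2 and limma called 0 of the 6 there. None was called in Lmx1b-/- against WT by edgeR. There 4 of the 6 were lower at an unadjusted p under 0.05, compared with 2.54% of all genes (8.09% in either direction), and DESeq2 called 1, En1. En1 (-1.99, adjusted p = 0.246) and En2 (-3.07, adjusted p = 0.332) had the smallest p. Of 8 tested genes of the rhombic lip and roof plate, Calb2, the calcium buffer calretinin, was the 1 that was called. It was lower in Lmx1b+/- than in WT (-0.49, adjusted p = 0.00714) and higher in Lmx1b-/- than in Lmx1b+/- (0.41, adjusted p = 0.0264). In Lmx1b-/- against WT, 0 of the 8 were called by edgeR or DESeq2 and 0 had an unadjusted p under 0.05, and Meis2 (0.19, adjusted p = 0.748 in edgeR) and Wnt3a (-0.86, adjusted p = 0.756) had the smallest p.

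Markers of neighbouring tissue also moved in the embryonic comparisons. In Lmx1b+/-, where 19.4% of all genes were higher and 17.3% lower, 5 of 13 hindbrain genes were higher, led by Hoxb3 (0.81, adjusted p = 0.0101 in edgeR), Hoxa5 (1.43, adjusted p = 0.0113), Hoxa2 (0.81, adjusted p = 0.0123) and Hoxb2 (0.97, adjusted p = 0.0127), and 1 was lower. Their summed level was 243, 443 and 206 CPM in WT and 691, 355 and 332 CPM in Lmx1b+/-. Of 12 meningeal genes, 5 were lower in Lmx1b+/-, among them Ptgds (-1.49, adjusted p = 0.0108), Slc22a6 (-1.62, adjusted p = 0.00481) and Slc6a13 (-1.08, adjusted p = 0.0189), and 1, Crabp2, was higher (0.93, adjusted p = 0.00289). The summed choroid plexus level was 358, 216 and 307 CPM in WT, 71.1, 1635 and 935 CPM in Lmx1b+/- and 1287, 724 and 102 CPM in Lmx1b-/-. Lmx1b+/- 1, the library with the least Pcp2, Car8, Zic2, Neurod1 and Eomes, also had the least choroid plexus signal. It also had the lowest meningeal sum of the 9 libraries, 227 CPM, and the highest hindbrain sum, 691 CPM. Lmx1b-/- 3, next lowest for choroid plexus, was the highest of its group for Car8, Zic2 and Eomes but not for Pcp2 or Neurod1. Of the 6 tested forebrain genes, Neurod6 was higher in Lmx1b+/- (0.98, adjusted p = 0.000559), and the summed level of the list was 40.0 to 88.9 CPM over the 9 libraries. The summed level of 5 midbrain genes was 97.5, 51.8 and 101 CPM in WT, 90.7, 76.6 and 39.4 CPM in Lmx1b+/- and 59.4, 42.7 and 62.1 CPM in Lmx1b-/-. Of 9 tested muscle genes 3 were higher and 1 lower in Lmx1b+/-, and of 6 choroid plexus and 5 midbrain genes edgeR called 0, with 2 of each at an unadjusted p under 0.05 and 0 and 1 called by DESeq2. That unadjusted threshold was met by 10015 of all 21729 genes. In Lmx1b-/- against WT, Tph2, the serotonin-synthesising enzyme (-4.75, adjusted p = 4.8e-05), was the 1 gene of these 6 lists called by edgeR, and DESeq2 also called 2 genes of the forebrain list, Neurod6 among them. In Lmx1b-/- against Lmx1b+/-, edgeR called 11.5% of all genes higher and 14.0% lower. There 3 forebrain genes were higher, Tbr1 among them (2.85, adjusted p = 0.00138), and 4 muscle genes and 1 midbrain gene were lower. Of the hindbrain genes 1 was higher and 2 were lower, Tph2 among the latter (-4.92, adjusted p = 2.09e-05). The part of these tissues, and of the mitochondrial share given above, in the differences of the 8 genes was not tested.

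**Figure D4:**
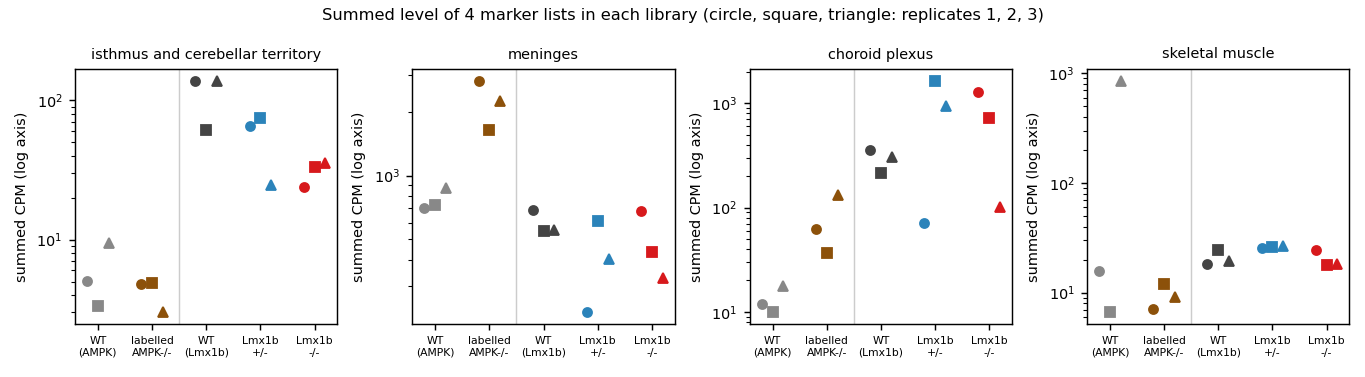
Summed CPM (log axes) of 4 marker lists in the 15 libraries; circles, squares and triangles are replicates 1, 2 and 3. The isthmus genes were lowest in the newborns. The meningeal sum, most of it Ptgds in the newborns, was higher in all 3 libraries labelled AMPK-/- than in their WT. Choroid plexus genes ranged from 71.1 to 1635 CPM among the embryos, and AMPK WT 3 stood at 852 CPM for muscle genes.

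In the newborns, edgeR called 4 of 12 tested granule lineage genes lower and 1 higher in the libraries labelled AMPK-/-, compared with 5.17% and 3.77% of all genes. DESeq2 called 2 of the 12, Slc17a7 and Rbfox3, both lower, and limma on RPKM called 0, as it did over all genes and lists in this experiment. Slc17a7 was at 73.1, 110 and 71.1 CPM in WT and 10.6, 6.80 and 12.1 CPM in the others, with no overlap (-3.15, adjusted p = 7.89e-08 in edgeR). Rbfox3 (-1.08, adjusted p = 0.00219) and Neurod2 (-1.65, adjusted p = 0.0176) were also lower, and Mfap4, an extracellular matrix protein, was higher (1.97, adjusted p = 0.0266). Cbln3, a granule cell cerebellin, was at 1.05, 0 and 16.5 CPM in WT and 2.78, 0.972 and 3.02 CPM in the others, and Gabra6 at 0, 0 and 6.30 CPM in WT and 0.859, 0.0648 and 0 CPM in the others. WT 3 was thus the highest library for Cbln3, Gabra6, Pcp2, Eomes, Car8 and Zic1. This did not hold for Cbln1, highest in WT 1, or for Zic2, Barhl1 and Neurod1, highest in WT 2, a library of low depth. Among the newborn libraries, the summed level of the granule lineage list was highest in WT 3, at 315 CPM. That of the Purkinje lineage list was lowest in WT 3, at 1820 CPM. Of 19 Purkinje lineage genes edgeR called 2 lower and 2 higher, and DESeq2 called 0. In edgeR, Itpr1, the IP3 receptor that Car8 binds (-0.76, adjusted p = 0.0490), was among the lower ones, and Foxp2 (2.91, adjusted p = 0.00175) and Calb1 (1.23, adjusted p = 0.0194) were higher. Among the 10 partners, edgeR called Nrxn2 (-1.04, adjusted p = 0.00104) and Grid2ip (-2.63, adjusted p = 0.0223) lower and none higher, and DESeq2 called Nrxn2. Of 4 tested isthmus genes 0 were called by edgeR, DESeq2 or limma and 0 had an unadjusted p under 0.05, with the smallest p for En2 (-1.02, adjusted p = 0.235) and Pax5 (-0.84, adjusted p = 0.501), and of 3 rhombic lip and roof plate genes Calb2 (1.15, adjusted p = 0.00298) and Meis2 (0.79, adjusted p = 0.0207) were higher, both also called by DESeq2.

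Beside these, edgeR called 6 of 12 meningeal genes higher in the libraries labelled AMPK-/- and none lower, compared with 3.77% and 5.17% of all genes. DESeq2 called 2 higher. Their summed level was 2802, 1650 and 2254 CPM against 700, 729 and 874 CPM in WT. Most of this sum was 1 gene, Ptgds, with group means of 2037 and 644 CPM. Ptgds, the prostaglandin D synthase of the arachnoid (1.66, adjusted p = 1.87e-05 in edgeR), and Aldh1a2 (1.78, adjusted p = 0.00124) had the smallest p. Of 4 tested choroid plexus genes, edgeR called Ttr (3.80, adjusted p = 1.87e-05) and Kcnj13 (3.98, adjusted p = 0.00627) higher, and DESeq2 called Ttr. The 6 muscle genes tested were called lower by edgeR and 0 of them by DESeq2, with WT 3 as the high library and overlap between the groups for each. Of 2 forebrain and 2 midbrain genes tested 0 were called by edgeR or DESeq2, and 0 had an unadjusted p under 0.05. Of 13 hindbrain genes edgeR called 2 higher, Tph2 among them (5.26, adjusted p = 0.000835), and DESeq2 called Tph2. The part of these tissues in the difference of Barhl1 was not tested.

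Over the 9 embryonic libraries, the genes with the level pattern most like each of the 8 were found by Pearson's r of log2 CPM. The libraries share 1 experiment and their genotypes, and each r is a description across 9 points. Eomes was most like Fam120a (r = 0.9949), Phactr4 (0.9886) and Grin2c (0.9877). Zic2 was most like Man1c1 (0.9822), Map3k11 (0.9791) and Tob2 (0.9762). Car8 was most like Slc5a1 (0.9699), Cpne9 (0.9638) and Pde1c (0.9632), and Pde1c was also first for Neurod1 (0.9719), followed by Adm (0.9677) and Zcchc4 (0.9625). For Pcp2 these were Rin3 (0.9724), Iqgap3 (0.9649) and Gm42572 (0.9616), for Barhl1 Trp53i11 (0.9688), Lzts1 (0.9669) and Irx5 (0.9663), for Zic1 Gm37120 (0.9705), Ly6g5b (0.9691) and Mlkl (0.9667), and for Cbln1 Tmem178 (0.9544), Lpar5 (0.9381) and Gm12903 (0.9335). The 8 genes themselves were left out of the search.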

How the data were processed

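RNA from brainstem was prepared by the authors with TRIzol and a directional library kit with molecular indexes and sequenced on an Illumina HiSeq. The submitters' processing notes name HISAT2 and GRCm39, and the methods edgeR; the counter, annotation, strand setting and use of the indexes are not given in the sources used here. For each experiment the authors deposited raw counts per gene, and RPKM made from the same counts by gene length and library total, each of 15 libraries having 1 column (0 columns of other samples). Identifiers were matched to symbols for 51884 of 57180 genes (90.7%).

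Tests were run with edgeR 4.0.16 (R 4.3.3): filterByExpr, TMM, and the quasi-likelihood F-test with genotype as the only term, in a fit of 6 AMPK libraries (17397 genes) and a fit of 9 Lmx1b libraries (21729 genes), with Benjamini-Hochberg adjustment. The Lmx1b genotypes share 1 estimate of the spread. DESeq2 1.42.0 on the counts and limma 3.58.1 on RPKM, with a pseudocount of 1 or 0.1, were alternatives. Genes to which DESeq2 gave no adjusted p are counted as not called by it. Levels of different genes were compared as RPKM. A library's floor is 3 counts of its TMM-scaled total, for counting error only. Promoters are RefSeq's on GRCm38.p6, from a table that held 5 of the 8 genes, and gene overlaps are those of GENCODE M21; because the builds differ, no other coordinates are given.

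The 8 genes and 11 other lists (116 genes) were chosen with earlier results of these data known. From each other list, up to 4 called genes per comparison with the smallest adjusted p were named, or up to 2 with the smallest p where none was called; Barhl2, Cbln3 and Gabra6, and the genes named from DESeq2's calls, were chosen after their values were seen. Some listed genes are counted but not reported here by name. No 2 libraries held identical values.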

Additional observations from a re-analysis of the deposited data

How the results depend on the processing

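In the AMPK experiment, depth limits the 2 shallow libraries (medians of 3 and 4 counts over tested genes, the others 197 to 222), and the number of genes called, 1555, was 667 with DESeq2, 322 with the length and GC trend of each library removed (an alternative chosen after seeing the data), 6 without both shallow libraries (3657 at an unadjusted p under 0.05), and 0 with limma on RPKM at either pseudocount (2840 and 2543 unadjusted). Of the 8 genes, where 1 was called, 2 were called with library size scaling, without the filter and with the replicate number as a block. With either limma fit, without the shallow libraries and with DESeq2, 0 were called. DESeq2 gave no adjusted p to Barhl1, Car8, Zic2 or Neurod1, so it could not call these genes. Leaving out 1 library at a time gave 548 to 2958 genes and 0 to 3 of the 8. In Lmx1b-/- against WT, the 4 genes called became 35 with DESeq2, 19 with library size scaling, 329 without the filter and 13 in a fit of 6 libraries, and the 0 of the 8 became 2 with DESeq2, 7 without the filter and 1 in the fit of 6 libraries. Leaving out 1 library gave 3 to 11 genes and 0 to 0 of the 8. In Lmx1b+/- against WT, the 5 of the 8 became 8 with library size scaling and with limma at a pseudocount of 0.1, and 4 to 6 without 1 library, over 5911 to 8404 genes. In Lmx1b-/- against Lmx1b+/-, the 0 of the 8 became 1 with library size scaling and either limma fit, 2 without the filter, and 0 to 4 without 1 library, over 3500 to 6054 genes. The cause of these changes was not tested.

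Directions turned for Car8 in the AMPK experiment with the replicate block (0.41) and without WT 3 (0.75), for Zic2 there with the block (0.14), with the trend removed (0.19) and without WT 3 (0.40), for Neurod1 there without WT 3 (0.27), and for Pcp2 in Lmx1b-/- against Lmx1b+/- with limma (0.0021 and 0.15), without Lmx1b+/- 2 (0.90) and without Lmx1b-/- 2 (0.0092). Leaving out 1 library at a time, the lowest values of these 4 were -0.90, -0.59, -0.73 and -0.67, and the highest 0.75, 0.40, 0.27 and 0.90. With library size scaling, the median log2 difference over all genes was -0.183 in AMPK, -0.272 in Lmx1b+/- against WT and 0.223 in Lmx1b-/- against Lmx1b+/-, in place of -0.01, -0.03 and 0.02, and the share of calls that were higher went from 42.1 to 14.2%, 53.0 to 26.1% and 45.1 to 74.2%. Deviations of same-numbered libraries correlated at -0.177 to 0.148, and those of differently numbered ones at -0.116 to 0.237. In Lmx1b-/- against WT the same-numbered values were 0.0758, 0.148 and 0.0974, and the others -0.0952 to -0.01. Whether the replicate numbers pair libraries is not given and was not tested. With the replicate number as a block, 1350 genes were called in AMPK, 5 in Lmx1b-/- against WT, 7243 in Lmx1b+/- against WT and 4720 in Lmx1b-/- against Lmx1b+/-, with 2, 0, 5 and 0 of the 8 genes.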
